A study of Mus musculus with 16 samples.

Results

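Cd36, Slc27a4 and Acsl5 encode proteins that bring dietary fatty acids into the enterocyte and activate them. They were taken by symbol and are 3 of 2438 genes listed by the authors at an adjusted p under 0.05, which is 14.8% of the 16488 genes adjusted over. RNA-seq of 16 mouse libraries, labelled duodenal epithelium and described as proximal small intestine in the study's design, compared both genotypes in obesity on a high fat diet (HFD). The 7 KO libraries (Ephb4-IKO) came from mice with Ephb4 knocked out conditionally in intestinal epithelial cells, and the 9 flox libraries from Ephb4 fl/fl mice. All mice were aged 8 weeks when HFD feeding began and had 19 weeks of it, so no library shows another diet. The sources used here give neither the recombinase line nor the strain.

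Long-chain fatty acids from digested fat cross the brush border of enterocytes, are trapped as acyl-CoA and are then esterified to triglyceride for export in chylomicrons. CD36 is a membrane glycoprotein that binds long-chain fatty acids and is also made by endothelium, macrophages, platelets and adipocytes. FATP4, the product of Slc27a4, and ACSL5 both form acyl-CoA from long-chain fatty acids.

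Values are normalised counts, reads per gene divided by a size factor per library. The listed genes together held 3592468 to 4555872 reads in KO libraries and 4237178 to 5316273 in flox libraries, and the total depth is unknown. Ephb4 averaged 36.6 ± 21.7 normalised counts in KO libraries and 210.5 ± 94.4 in flox libraries (SD, n = 7 and 9), with no overlap. Vil1, a brush border marker of enterocytes, was abundant in every library, at 36391 to 50916 in KO libraries and 52450 to 73015 in flox libraries. In 5 flox libraries (replicates 4, 6, 7, 9 and 10) the summed level of 21 listed pancreatic acinar genes was 7009 to 144031. It was 383.5 to 1716 in KO libraries and 391.9 to 516.5 in the other 4 flox libraries, so every library held some. The 5 were set apart by a rule based on the highest KO sum and applied to flox libraries only. KO replicate 7, at 1716, was kept. All 21 genes (of 24 in the list) were listed as lower in KO. A non-epithelial score, the mean log2(value + 1) of 10 listed marker genes, ran from 5.13 to 7.14 in KO libraries and from 4.52 to 5.89 in flox libraries, and was highest in KO replicate 1. The labels do not state that each library came from its own mouse, and p-values measure the spread between these libraries.

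The promoters of the 3 genes are shown because all 3 genes were listed as lower in KO, although Acsl5 turned positive with quantile normalisation. They are 250 bases before to 50 after the RefSeq start, build GRCm38.p6, at chr5:17835847-17836146 (minus strand) for Cd36, chr2:29802384-29802683 (plus strand) for Slc27a4 and chr19:55253119-55253418 (plus strand) for Acsl5. Capitals mark exact matches on either strand to AGGTCA (the core hexamer of nuclear receptors), GGGCGG (GC box) or CCAAT.
Cd36: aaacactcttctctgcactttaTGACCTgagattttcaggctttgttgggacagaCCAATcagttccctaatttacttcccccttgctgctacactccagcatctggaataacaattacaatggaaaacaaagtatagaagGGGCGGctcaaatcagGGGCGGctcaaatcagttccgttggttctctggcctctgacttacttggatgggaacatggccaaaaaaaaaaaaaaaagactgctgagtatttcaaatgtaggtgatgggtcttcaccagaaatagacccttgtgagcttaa
Slc27a4: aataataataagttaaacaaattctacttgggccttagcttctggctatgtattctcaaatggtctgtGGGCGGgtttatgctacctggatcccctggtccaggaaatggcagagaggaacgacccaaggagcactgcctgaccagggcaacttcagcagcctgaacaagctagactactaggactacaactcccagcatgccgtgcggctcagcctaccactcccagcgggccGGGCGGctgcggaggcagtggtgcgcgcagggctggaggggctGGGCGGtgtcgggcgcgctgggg
Acsl5: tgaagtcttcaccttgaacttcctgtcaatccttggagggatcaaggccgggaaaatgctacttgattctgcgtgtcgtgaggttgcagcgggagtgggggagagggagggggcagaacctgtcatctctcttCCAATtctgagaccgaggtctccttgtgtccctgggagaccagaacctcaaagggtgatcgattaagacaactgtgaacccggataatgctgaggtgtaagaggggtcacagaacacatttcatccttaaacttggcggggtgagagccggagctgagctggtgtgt
Matches to GGGCGG numbered 2 in the Cd36 window, 3 in that of Slc27a4 and 0 in that of Acsl5, and 35.7% of all 32851 promoters held the motif. CCAAT occurred in the windows of Cd36 and Acsl5 and in 37.4% of promoters, and AGGTCA in that of Cd36 and in 16.3%. No window held TATAAA (13.6% of promoters) or CAAAGTCCA, an HNF4 motif (0.475%). Nor did any hold AGGTCA repeated in tandem after any 1 base, the PPAR and RXR element, which contains AGGTCA and occurred in 0.0396% of promoters. The Cd36 window held aggggcggctcaaatc, 16 bases long, as a tandem pair starting at -111 and -95 from the transcript start. A match is a description and not a binding site. The deposited spans of Cd36 and Acsl5 begin upstream of these starts, and promoters of other starts are not shown.

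Cd36 (ENSMUSG00000002944, 5:17781690-17888801, minus strand), which binds fatty acids at the cell surface, had the largest fold and the widest spread of the 3 genes. Its normalised count had a lowest value of 890.3, a median of 1374 and a highest of 2606 in KO libraries, against 1362, 2524 and 3828 in flox libraries. KO replicates 5 and 8, at 2445 and 2606, lay near the flox median, while flox replicates 4 and 6, at 1362 and 1488, lay near the KO median. The mean was 1569 ± 685 in KO libraries and 2475 ± 784 in flox libraries (SD, n = 7 and 9), 1.58-fold lower in KO. The log2 difference was -0.70 ± 0.25 (SE), with an adjusted p of 0.0956 in limma and an exact two-sided permutation p of 0.0256. In the authors' deposited table it was -0.66 with an adjusted p of 0.0379. Without KO replicate 8 the difference was -0.84 and passed limma (adjusted p = 0.0439). The highest Cd36 value was 2.93 times the lowest in KO libraries and 2.81 times in flox libraries, while for Slc27a4 it was 1.79 times in KO libraries and 1.38 times in flox libraries.

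Slc27a4 (ENSMUSG00000059316, 2:29802634-29817522, plus strand), the fatty acid transport protein with acyl-CoA synthetase activity, was the only one of the 3 genes to pass limma with the deposited scaling. Its normalised count had a lowest value of 14478, a median of 20766 and a highest of 25926 in KO libraries, against 27328, 29222 and 37648 in flox libraries. Every KO library lay below every flox library, and KO replicate 7 was the lowest of all 16. A lower KO group with no overlap was seen in 130 of the 2438 listed genes (5.33%), of which only 1288 were listed as lower. The mean was 20521 ± 4037 in KO libraries and 31327 ± 4265 in flox libraries (SD, n = 7 and 9), 1.53-fold lower in KO. The log2 difference was -0.62 ± 0.12 (SE) with an adjusted p of 0.00845 in limma, and an exact two-sided permutation test gave 8.74e-05, the smallest p that 11440 splits can give. In the authors' deposited table it was -0.61, at an adjusted p of 7.36e-05.

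Slc27a4 kept its fall in limma when any 1 library was left out, with adjusted p-values up to 0.0214. It was -0.53 (adjusted p = 0.944, limma) after the non-epithelial score was added as covariate and -0.63 (adjusted p = 0.0951, limma) once the 5 flox libraries carrying pancreatic transcripts were left out. Only 7 and 11 of all 2339 genes tested passed limma in these settings, with 660 and 1703 at an unadjusted p under 0.05. For Slc27a4 the unadjusted p-values were 0.00738 and 0.00105 (limma). The 10 genes of the score were themselves listed as higher in KO on these libraries. The score thus follows the group in part, and the covariate cannot separate non-epithelial RNA from the group difference. The part of non-epithelial RNA in the result was not tested.

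Acsl5 (ENSMUSG00000024981, 19:55251938-55297720, plus strand), the main long-chain acyl-CoA synthetase of the intestinal epithelium, had the smallest difference. Its normalised count had a lowest value of 30087, a median of 36995 and a highest of 48555 in KO libraries, against 37955, 50046 and 57576 in flox libraries. The groups overlapped, with 5 of 7 KO libraries below the lowest flox library and KO replicates 4 and 8 among the flox values. The mean was 38677 ± 6936 in KO libraries and 48040 ± 6876 in flox libraries (SD, n = 7 and 9), 1.24-fold lower in KO. The log2 difference was -0.32 ± 0.11 (SE), with an adjusted p of 0.0933 in limma and an exact two-sided permutation p of 0.0177. In the authors' deposited table it was -0.31 with an adjusted p of 0.0469, near the limit of 0.05 for listing. Quantile normalisation, which used only the listed genes, turned the difference to 0.092. Exons of Zdhhc6, annotated on the opposite strand, share 404 bases (8.31%) with those of Acsl5. The sources used here do not say whether counting used strand, so reads in that stretch cannot be assigned.

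**Figure D1:**
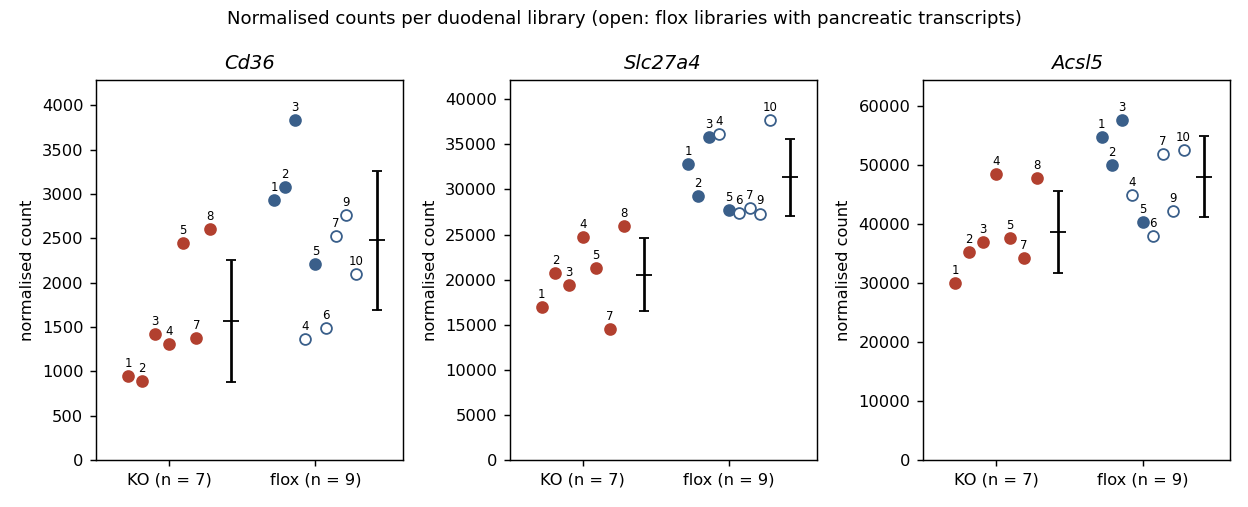
Normalised counts of Cd36, Slc27a4 and Acsl5 in each library (points, numbered by replicate), with the mean and SD beside each group. Open points are the 5 flox libraries with pancreatic transcripts. For Slc27a4 the KO libraries, at up to 25926, all lie below the flox libraries, at 27328 and above, while the groups overlap for Cd36 and Acsl5.

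All 3 genes were among the 1288 that the authors listed as lower in KO, 7.81% of those adjusted over, with Acsl5 turning to 0.092 on the log2 scale under quantile normalisation. Since the 3 were taken from that list, nothing is read from this count. In limma Slc27a4 alone of the 3 passed, against 54.3% of 2339 listed genes past a mean of 10 in either direction and 35.1% as lower. The limma split was 449 higher and 820 lower, and the 2339 include genes listed as higher. TMM scaling turned this split to 723 and 189 and moved the median log2 difference of all genes by 0.14. Relative to the median of all genes tested, the log2 differences with the deposited scaling were -0.45 for Cd36, -0.37 for Slc27a4 and -0.070 for Acsl5. These were -0.45, -0.37 and -0.069 with TMM and -0.38, -0.19 and 0.084 with quantile normalisation, which moved the median by 0.26. Both used only the listed genes, which were selected for a group difference. A change of sign under them therefore cannot show whether the deposited scaling was right. In bulk samples, fewer cells of a type and less RNA per cell cannot be told apart.

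The flox libraries with pancreatic transcripts had lower Cd36 than the other flox libraries, at 1362 to 2760 (n = 5) against 2206 to 3828 (n = 4), with overlap. Slc27a4 ran from 27328 to 37648 in these 5 libraries and from 27736 to 35815 in the other 4. Without the 5 libraries the log2 difference of Cd36 was -1.02 (adjusted p = 0.117, limma) and that of Acsl5 -0.40 (adjusted p = 0.265, limma). With the non-epithelial score added as covariate the values were -0.81 for Cd36 and -0.23 for Acsl5 (adjusted p = 1 for each, limma). The score rests on 10 of 65 non-epithelial markers, all listed as higher in KO, as were 1150 of the 16488 genes adjusted over. The 10 were the only ones listed and were thus selected on these libraries. Their summed level ran from 798.8 to 3096 in KO libraries and from 683.7 to 1784 in flox libraries, and Lum was at 0 in some libraries. Of 20 lymphocyte and mast cell genes 6 were listed, with sums of 621.5 to 1786 in KO libraries and 526.1 to 1350 in flox libraries. Of 15 stromal genes 3 were listed, with sums of 121.3 to 1069 in KO libraries and 81.1 to 337.9 in flox libraries. Of 14 endothelial genes 1 was listed, Pecam1, at 114.5 ± 66.4 in KO libraries and 45.0 ± 22.1 in flox libraries (SD, n = 7 and 9). Of 16 macrophage, platelet and red cell genes 0 were listed. The part of cells other than enterocytes that make Cd36 was not tested.

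The 3 transcripts differed in base composition. The longest annotated transcript had a GC content of 38.4% for Cd36, 56.8% for Slc27a4 and 47.6% for Acsl5, against a median of 54.7% for listed genes lower in KO and 45.4% for those higher. With the trend of the log2 values on GC content removed, the log2 difference was -1.20 for Cd36 (adjusted p = 0.0116) and -0.51 for Acsl5 (adjusted p = 0.0382), both past the limma threshold. That of Slc27a4 was -0.28 (adjusted p = 0.225, limma) and no longer passed. This setting was chosen after seeing the data, on genes selected for their difference.

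**Figure D2:**
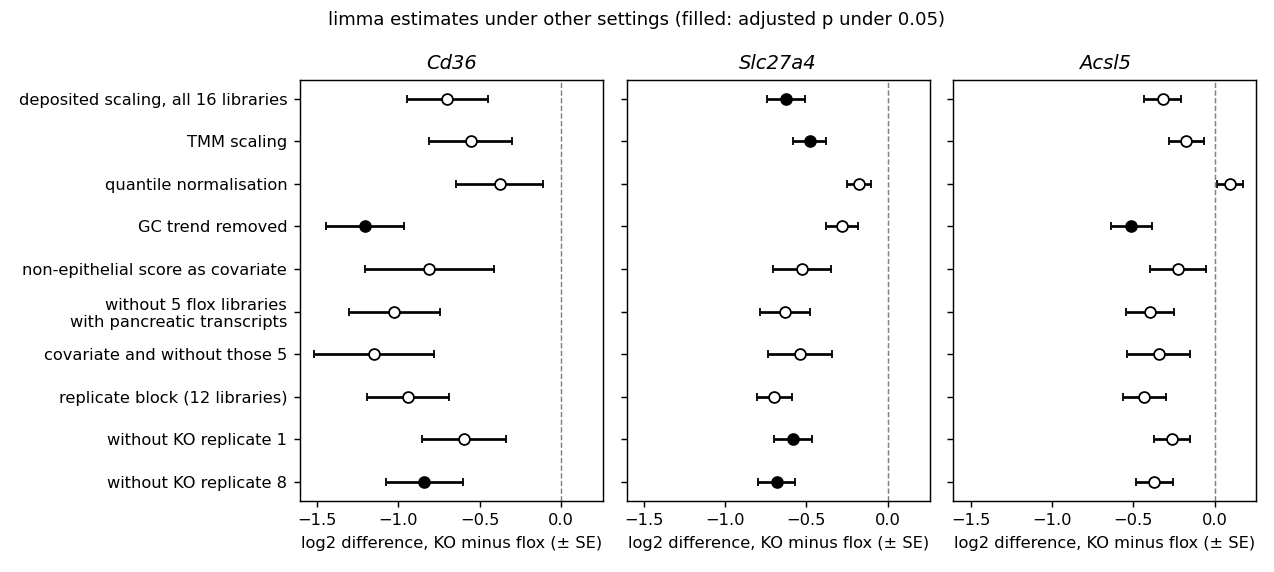
Log2 difference of KO minus flox (x axis, ± SE) for each gene under the limma settings named on the left. Filled points passed an adjusted p of 0.05. Slc27a4 passed with the deposited and TMM scaling and without KO replicate 1 or 8, Cd36 without KO replicate 8 and with the GC trend removed, and Acsl5 with the GC trend removed. Cd36 and Slc27a4 are below 0 in every setting shown, and Acsl5 turned to 0.092 with quantile normalisation over the listed genes.

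Levels per length ranked the 3 genes in the same order in every library. Acsl5 averaged 7952 ± 1426 normalised counts per kb in KO libraries and 9877 ± 1414 in flox libraries (SD, n = 7 and 9). Slc27a4 averaged 4651 ± 915 per kb in KO libraries and 7100 ± 967 in flox libraries, and Cd36 averaged 437.1 ± 191 in KO libraries and 689.5 ± 218 in flox libraries. Per length Slc27a4 stood at 46.5% to 64.8% of Acsl5 in KO libraries and at 59.4% to 88.5% in flox libraries. Cd36 stood at 3.41% to 8.79% of Acsl5 in KO libraries and at 4.10% to 9.01% in flox libraries. Among the 2438 listed genes Acsl5 ranked 20, Slc27a4 40 and Cd36 451 by mean level per kb.

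Ratios within a library, which hardly depend on its size factor, were lower in KO for Slc27a4 relative to Acsl5 with the deposited scaling, and higher, by 0.23, with the GC trend removed. The log2 ratio of Slc27a4 to Acsl5 averaged -0.92 ± 0.16 in KO libraries and -0.61 ± 0.18 in flox libraries (SD, n = 7 and 9), a difference of -0.31. Its exact two-sided permutation p was 0.00245, or 0.00734 adjusted over 6 ratios. All 7 KO libraries lay below the flox median, and 3 below the lowest flox library. The log2 ratio of Slc27a4 to Vil1, which encodes the actin-bundling protein villin of microvilli, differed by -0.29 (exact permutation p = 0.00227, adjusted p = 0.00734), with 6 of 7 KO libraries below the flox median. Both kept an adjusted p under 0.05 with any 1 library left out, and neither did with the 5 pancreatic flox libraries left out (differences of -0.23 and -0.32, exact permutation, adjusted p = 0.0727 for each). With the GC trend removed the ratio of Slc27a4 to Acsl5 turned to 0.23 (exact permutation, adjusted p = 0.0377), and that to Vil1 was -0.078 (exact permutation, adjusted p = 0.42). The order of the differences of Slc27a4 and Acsl5 thus depended on that correction.

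Vil1 itself was lower in KO with no overlap (log2 difference -0.34, adjusted p = 0.0307, limma), though 0.035 with quantile normalisation. It is thus not an unchanged reference. No difference beyond the spread was found in the ratio of Acsl5 to Vil1. On the log2 scale it averaged -0.31 ± 0.19 in KO libraries and -0.33 ± 0.18 in flox libraries (SD, n = 7 and 9), a difference of 0.019 (exact permutation, adjusted p = 0.846). It was -0.087 with the 5 pancreatic flox libraries left out and -0.31 with the GC trend removed (exact permutation, adjusted p = 0.0167). For Cd36 the log2 ratios to Acsl5, Slc27a4 and Vil1 differed by -0.38, -0.075 and -0.36, with adjusted p-values of 0.22, 0.846 and 0.312 by exact permutation. The spread of these ratios within a group, 0.38 to 0.57 (SD), was larger than each of these differences. With the 5 pancreatic flox libraries left out the differences were -0.63, -0.39 and -0.71 (exact permutation, adjusted p = 0.0727, 0.244 and 0.0727). With the GC trend removed they were -0.69, -0.92 and -1.0004, and all 3 passed (exact permutation, adjusted p = 0.0133, 0.00734 and 0.00734).

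**Figure D3:**
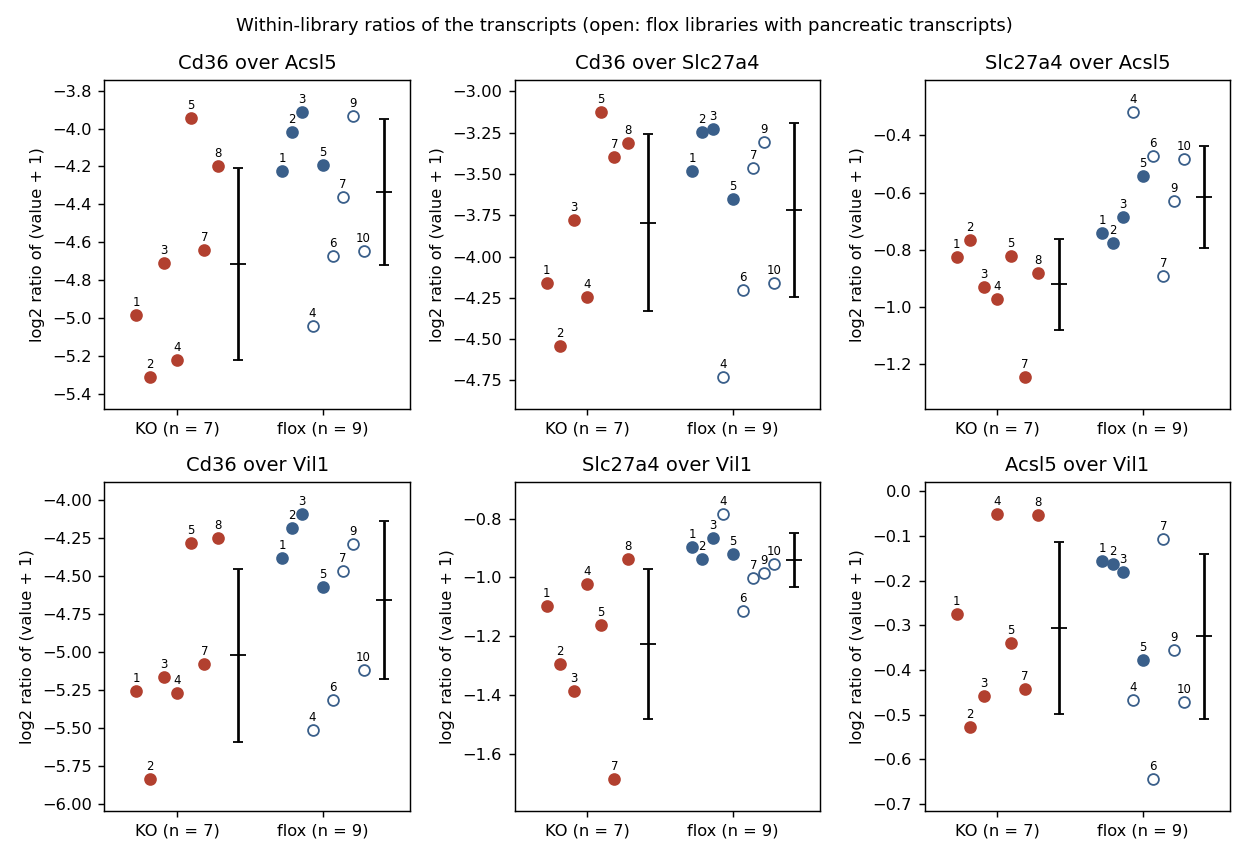
Log2 ratios of (value + 1) of gene pairs within each library (points, numbered by replicate), with mean and SD beside each group. Open points are the 5 flox libraries with pancreatic transcripts. The ratios of Slc27a4 to Acsl5 and to Vil1 are lower in KO libraries, by 0.31 and 0.29, though the first turned to 0.23, higher in KO, with the GC trend removed, and those of Acsl5 to Vil1 overlap, with means of -0.31 in KO libraries and -0.33 in flox libraries.

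The genes closest to each of the 3 in their course over the 16 libraries were found by the root mean square difference of centred log2 values. These values keep the group difference for which every gene was listed, and 1150 of the 2438 listed genes were higher in KO. Genes listed as lower thus tend to lie nearer than the median by design, and no shared control is read from the distances. For Cd36 the nearest were Mep1a, a brush border metalloprotease, Naaladl1, an intestinal brush border peptidase, and Aoc1, the diamine oxidase that degrades histamine. They lay at 0.27, 0.31 and 0.33, against a median of 0.68 over the genes searched. For Slc27a4 they were Sema3b, a secreted semaphorin, Tradd, an adaptor of the tumour necrosis factor receptor, and Smad7, an inhibitor of TGF-beta signalling, at 0.14, 0.14 and 0.15 against a median of 0.44. For Acsl5 they were Abhd6, a monoacylglycerol lipase, at 0.071, Tgoln1, a protein of the trans-Golgi network, at 0.099, and Tgfa, a ligand of the EGF receptor, at 0.099, against a median of 0.40. Abhd6 averaged 2624 ± 449 in KO libraries and 3312 ± 432 in flox libraries (SD, n = 7 and 9). The 3 genes were not each other's nearest. From Cd36, Acsl5 ranked 80 at 0.45 and Slc27a4 ranked 195 at 0.50. From Slc27a4, Acsl5 ranked 170 at 0.22 and Cd36 ranked 1212, farther than the median gene. From Acsl5, Slc27a4 ranked 431 and Cd36 ranked 1302, also farther than the median gene.

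Of 13 genes of fatty acid entry, 4 were listed as lower and 0 as higher, where 7.81% of all genes adjusted over were listed as lower and 14.8% in either direction. The 4 include Cd36 and Slc27a4, which were taken from the list. The authors' deposited table gave them a median log2 fold change of -0.63, against -0.37 over all listed lower genes. Besides Cd36 and Slc27a4 these were Slc27a2, a very long chain acyl-CoA synthetase, and Slc27a5, a bile acid CoA ligase. Slc27a2 averaged 3424 ± 488 in KO libraries and 4442 ± 670 in flox libraries (SD, n = 7 and 9) and fell 1.30-fold (adjusted p = 0.0318, limma). Slc27a5 averaged 18.8 ± 4.1 in KO libraries and 29.4 ± 3.7 in flox libraries (SD, n = 7 and 9) and also passed limma (adjusted p = 0.0487). All 4 kept a negative difference under TMM and quantile scaling. Slc27a1, Slc27a3, Slc27a6, Got2, Scarb1 and Cav1 were not listed, and whether they were tested is unknown.

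Of 17 acyl-CoA synthetases 2 were listed as lower, Acsl5 among them, and 1 as higher, near the 14.8% of all genes that were listed. Acsf3, the malonyl-CoA synthetase of mitochondria, averaged 715.7 ± 116 in KO libraries and 924.3 ± 107 in flox libraries (SD, n = 7 and 9) and fell (log2 difference -0.38, adjusted p = 0.0243, limma). Acsl4, which prefers arachidonic acid, was opposite to Acsl5, at 98.2 ± 28.8 in KO libraries and 61.1 ± 16.7 in flox libraries (SD, n = 7 and 9), with an authors' deposited log2 fold change of 0.68. Its difference was 0.67 in limma (adjusted p = 0.0624), 0.13 with quantile normalisation and -0.013 with the non-epithelial covariate. Acsl1, Acsl3 and Acsl6 were not listed.

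Of 15 genes of acyl-CoA binding and hydrolysis 3 were listed, all as lower. Of all genes 7.81% were listed as lower and 14.8% in either direction. All 3 genes passed limma with the deposited scaling, as did 54.3% of listed genes in either direction. The 3 kept the sign with TMM and quantile scaling. The acyl-CoA thioesterase Acot11 averaged 1234 ± 175 in KO libraries and 1648 ± 179 in flox libraries (SD, n = 7 and 9), the peroxisomal thioesterase Acot8 fell by 0.40 on the log2 scale and the binding protein Acbd4 fell by 0.33. Of 7 fatty acid binding proteins 2 were listed as lower. Fabp1, the liver-type protein, averaged 37359 ± 14327 in KO libraries and 72989 ± 17147 in flox libraries (SD, n = 7 and 9) and fell 1.95-fold (adjusted p = 0.0102, limma). Fabp2, the intestinal-type protein, fell 1.33-fold (adjusted p = 0.0388, limma) and turned to 0.097 on the log2 scale with quantile normalisation. Over these 4 lists, 11 of 52 genes were listed as lower and 1 as higher, where 7.81% of all genes were listed as lower and 14.8% in either direction. The median deposited log2 fold change of the 12 was -0.40. It was -0.23 over all listed genes, higher ones included, and -0.37 over those listed as lower, close to that of the 12. Abundant genes were mostly listed as lower, 712 of the 768 whose mean reached 1000 normalised counts. The median deposited log2 fold change of the 768 was -0.35.

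**Figure D4:**
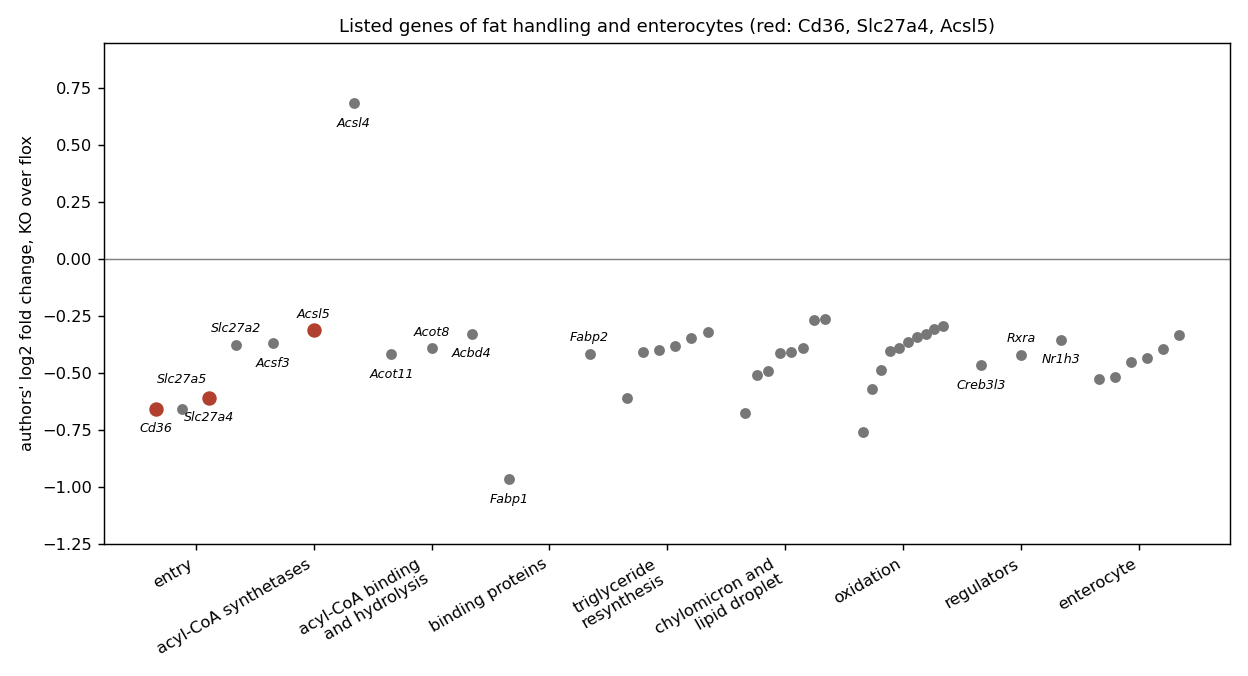
The authors' deposited log2 fold change of KO over flox (y axis) for each listed gene of the named lists, with Cd36, Slc27a4 and Acsl5 in red. Acsl4, at 0.68, is the only listed gene of these lists above 0, and Fabp1, at -0.97, is the lowest. With quantile normalisation some genes turned positive, Acsl5 and Fabp2 among them.

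Of 16 regulators of intestinal lipid genes 3 were listed, near the 14.8% of all genes listed in either direction. All 3 were lower and past limma. Of all genes 7.81% were listed as lower, and 54.3% of listed genes passed limma in either direction. Rxra, the partner of the PPAR and LXR receptors, averaged 2962 ± 245 in KO libraries and 3967 ± 370 in flox libraries (SD, n = 7 and 9), with no overlap and a log2 difference of -0.42 (adjusted p = 0.00579, limma). Creb3l3, a membrane-bound transcription factor of lipid metabolism, fell by 0.48 and the oxysterol receptor Nr1h3 by 0.34 on the log2 scale. The 3 kept a negative difference with TMM and quantile scaling. The PPAR genes Ppara, Ppard and Pparg and the factors Hnf4a and Hnf4g were not listed. Of 15 enterocyte markers 6 were listed, all lower, where 7.81% of all genes were listed as lower, with a median deposited log2 fold change of -0.44, and 4 passed limma. Vil1 turned to 0.035 with quantile normalisation, and 4 of the 6 stayed below 0.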

How the data were processed

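RNA was extracted with TRIzol, selected with poly-T beads and made into libraries with a NEBNext Ultra kit, per the labels' protocols. The tools HISAT2 2.0.5, DESeq2 1.20.0 and featureCounts 1.5.0-p3 and the build GRCm38 (mm10) are named in the submitters' processing notes, without settings. The deposited library columns hold a signal (reads of a gene over the library's size factor), and 100% of their nonzero values were whole multiples of 1 step (tolerance 0.0001 reads). The authors' log2 fold changes and p-values are used as deposited, and the p-values had been adjusted over 16488 genes. Unlisted genes were not analysed here.

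limma 3.58.1 (trend, robust) was run on log2(normalised count + 1) of the 2339 genes with a mean of at least 10, with Benjamini-Hochberg adjustment over 16488 genes and unlisted genes at a p of 1. KO and flox numbering was treated as unpaired. Because the genes were selected on these libraries, no p-value here is independent support. edgeR 4.0.16 and DESeq2 1.42.0 on recovered reads were alternatives, and all 3 were tested on simulated data. TMM scaling and quantile normalisation used the listed genes only. Called means an adjusted p under 0.05. Single values and ratios had two-sided exact permutation tests. Fold changes on this scale understate changes of low genes. No 2 libraries of a group were duplicates (smallest chi-square per degree of freedom 16.7). The genes, lists and settings were chosen with earlier results of these data known. Named were the 3 genes, Ephb4 and Vil1 as checks, every listed gene of the entry, synthetase, acyl-CoA binding and hydrolysis, binding protein and regulator lists, up to 4 of each other list by fold, and the 3 genes nearest to each of the 3. Promoters came from RefSeq, and exon overlap and GC content from GENCODE.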

Additional observations from a re-analysis of the deposited data

How the results depend on the processing

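The deposited scaling gave 1269 genes called by limma, and 1443 by edgeR. The count was 355 with quantile normalisation, 348 with the GC trend removed and 2239 with DESeq2, the tool the authors used to select the genes. It was 418 with edgeR and 1212 with DESeq2 without KO replicates 1 and 3, 11 without the flox libraries with pancreatic transcripts, and 7 with the non-epithelial covariate, with or without those libraries. With 1 library left out it ran from 518 to 1458, and was 645, 622 and 518 without KO replicates 1, 5 and 7 and 615, 838 and 646 without flox replicates 3, 4 and 10. The cause of these changes was not tested. The settings without KO replicates 1 and 3, with the GC trend removed and with both the covariate and fewer libraries were chosen after seeing the data.

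Cd36 was negative in all 30 alternatives. It passed the threshold with DESeq2 (-0.66, adjusted p = 0.041) and with the GC trend removed (-1.20), and ran from -0.84 to -0.58 with 1 library left out. Slc27a4 was also negative in all 30. It no longer passed with quantile normalisation (-0.18), without the pancreatic libraries (-0.63), with the covariate (-0.53), with the covariate and without those libraries (-0.54), with the GC trend removed (-0.28) or with the replicate block (-0.70), 6 settings in all, and ran from -0.68 to -0.54 with 1 library left out. Acsl5 turned to 0.092 with quantile normalisation, passed with DESeq2 (-0.31, adjusted p = 0.0437) and with the GC trend removed (-0.51), and ran from -0.38 to -0.26 with 1 library left out. Without KO replicates 1 and 3 the DESeq2 calls of Cd36 (-0.52, adjusted p = 0.51) and Acsl5 (-0.24, adjusted p = 0.352) were lost, and that of Slc27a4 was kept (-0.55).

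With quantile normalisation the ratios of Slc27a4 to Acsl5 and to Vil1 differed by -0.27 and -0.21, and without the pancreatic libraries by -0.23 and -0.32, past the threshold in neither setting. With the GC trend removed they were 0.23, a reversal past the threshold, and -0.078, no longer past it, while Cd36 to Acsl5, Slc27a4 and Vil1 passed at -0.69, -0.92 and -1.0004 and Acsl5 to Vil1 turned to -0.31. With 1 library left out the Slc27a4 ratios ran from -0.34 to -0.25 and from -0.34 to -0.21. Cd36 to Acsl5 ran from -0.51 to -0.28, Cd36 to Vil1 from -0.49 to -0.23, and Cd36 to Slc27a4 from -0.20 to 0.0496, turning positive without KO replicate 2 and reaching 0.000173 without KO replicate 4. Acsl5 to Vil1 ran from -0.0241 to 0.0553, was below 0 without KO replicate 4 or 8 or flox replicate 6, and was -0.087 without the pancreatic libraries.

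The labels do not say whether same-numbered libraries were paired. Such libraries had correlations of -0.43 to 0.37 and 1 of 6 matched its own number best. This check used genes selected for a group difference and cannot exclude a pairing. With the replicate block on 12 libraries 9 genes were called, and the differences were -0.94 for Cd36, -0.70 for Slc27a4 (adjusted p = 0.0652, limma, so its call was lost) and -0.43 for Acsl5. The paired ratios of Slc27a4 to Acsl5 and to Vil1 and of Acsl5 to Vil1 then differed by -0.27, -0.37 and -0.11. Neither ratio of Slc27a4 passed the threshold in this setting (exact permutation, adjusted p = 0.1875 for each). With only 6 pairs, a permutation test can hardly reach 0.05 after adjustment over 6 ratios. Nothing is therefore read from the loss of both calls.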

Other observations

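Later steps of fat handling showed the same direction in the authors' deposited table, which held 6 of 14 genes of triglyceride resynthesis, 8 of 16 of chylomicron and lipid droplet formation and 10 of 20 of fatty acid oxidation, all lower in KO, where 7.81% of all genes adjusted over were listed as lower. The median deposited log2 fold changes were -0.39, -0.41 and -0.38, close to the -0.37 of all listed lower genes. In limma 6, 5 and 8 of them passed. As lower, 820 of 2339 listed genes passed (35.1%), a total that includes genes listed as higher. The authors listed 1288 genes as lower. Dgat2, which joins the last fatty acid to diacylglycerol, averaged 13369 ± 3987 in KO libraries and 20404 ± 5072 in flox libraries (SD, n = 7 and 9), and Mogat2, which starts resynthesis from monoacylglycerol, averaged 9112 ± 961 in KO libraries and 12012 ± 1238 in flox libraries with no overlap. Cideb, a lipid droplet protein, averaged 871.2 ± 98.5 in KO libraries and 1391 ± 210 in flox libraries (SD, n = 7 and 9), and the peroxisomal thiolase Acaa1b averaged 950.1 ± 158 in KO libraries and 1608 ± 606 in flox libraries (SD, n = 7 and 9). With quantile normalisation 1, 3 and 2 members of the 3 lists turned positive, and Apoa1, of the chylomicron list, came to 0. All 11 listed of 15 cycling genes were higher in KO, where 1150 of the 16488 genes adjusted over were listed as higher. In limma 7 of the 11 passed. Of all 2339 listed genes tested, lower ones included, 449 passed as higher and 54.3% in either direction. Among the 7 was Mki67, at 803.3 ± 249 in KO libraries and 402.3 ± 193 in flox libraries (SD, n = 7 and 9).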
